A study of Mus musculus with 23 samples.

Results

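MC38 is a mouse colon carcinoma line that grows as a tumor under the skin of C57BL/6 mice. RNA of 3 MC38 tumors is described here against RNA of 12 tumors from 4 other lines of the same strain, 3 tumors a line: the melanoma line B16-F10 (B16), the breast carcinoma line EO771.LMB (EO771), the lung carcinoma line LL2 and the pancreatic ductal carcinoma line Pan02. The MC38 tumors were taken by their sample labels and make up 3 of the 15 tumors and 3 of the 23 samples analysed here, the other 8 samples being cancer-associated fibroblasts (CAFs) sorted from tumors of MC38, EO771, LL2 and Pan02, 2 libraries of each. All 15 tumors came from adult female C57BL/6 mice without drug treatment, in which 500000 cells were injected under the skin of the flank, and ulcerated tumors were left out. Each model is 1 cell line outside its organ of origin, and a tumor fragment holds host cells beside cancer cells, so that fewer cells of a type and less RNA per cell cannot be told apart. Cells were injected in 1 flank or in both, and the sources used here do not say which tumors shared a mouse, so the p-values measure the spread between these tumors.

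The 15 tumors had 10035173 to 21946486 counts (median 16541399), the MC38 tumors 13385619 to 19124262. Levels are given as CPM, counts scaled to library size after edgeR's TMM factors, and 3 counts in a library, which cover counting error only, came to between 0.147 and 0.295 CPM in the 12 other tumors. The comparison was MC38 against the mean of the 4 other models, each model weighing the same, on a log2 scale. A gene was called higher or lower at a Benjamini-Hochberg adjusted p under 0.05 in edgeR's quasi-likelihood test when its log2 fold change was also at or past 1 in size. Of 15722 genes tested, 1766 (11.2%) were higher in MC38 tumors and 1296 (8.24%) lower. These shares are the background for every count below that sets MC38 against the mean of the 4 models. TMM lowered the log2 fold changes of all genes by 0.14 against scaling to total counts, which gave 2152 genes higher and 1027 lower. Fitted as 1 group of 12, whose spread then holds the differences between lines, the other tumors left 514 genes higher and 410 lower.

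Distances between MC38 tumors on log2 CPM ran from 44.8 to 61.4, and the median distance to the other models was 126 for LL2, 138 for EO771, 147 for Pan02 and 170 for B16. Within MC38 the median coefficient of variation was 9.68% over the 10123 genes with a mean of at least 10 CPM. MC38 tumor 3 held the most RNA of skeletal muscle and red cells. The summed level of 14 skeletal muscle genes was 1339, 539 and 4362 CPM in MC38 tumors 1, 2 and 3, against 12.1 to 1491 CPM elsewhere, where LL2 tumors 2 and 3 and Pan02 tumor 1 were the highest. All 14 were called higher in MC38 (median log2 fold change 5.06), none with the 3 MC38 tumors above all 12 others. The summed level of the erythroid genes was 262, 65.2 and 334 CPM in MC38 and 13.8 to 163.9 CPM elsewhere, with 5 of 6 tested genes higher. Their part in the other results was not tested. In the fit with the others as 1 group none of the muscle genes and 2 of the erythroid genes were called higher.

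Interferons are signalling proteins that cells release on sensing viral or misplaced nucleic acid, or that T and NK cells release on meeting a target. Type I interferon acts through a complex that holds STAT2 and IRF9 and binds the interferon-stimulated response element (ISRE) of antiviral genes, while interferon gamma acts at the gamma-activated site (GAS). Targets of both include the machinery that cuts proteins into peptides and shows them on MHC class I, which lets CD8+ T cells recognise a tumor cell. MC38 is widely used as a model of a tumor that T cells recognise.

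The promoters of the 4 type I interferon response genes with the lowest p are shown as examples of the list described next. They are the 250 bases before the start in RefSeq on GRCm38.p6, the build the study calls mm10, read 5′ to 3′ on the strand of the gene, with matches to the core letters of the ISRE in capitals, which are 2 copies of GAAA with any 2 bases between them, or of TTTC for the other strand.
*Rsad2*, chr12:26456453-26456702, minus strand: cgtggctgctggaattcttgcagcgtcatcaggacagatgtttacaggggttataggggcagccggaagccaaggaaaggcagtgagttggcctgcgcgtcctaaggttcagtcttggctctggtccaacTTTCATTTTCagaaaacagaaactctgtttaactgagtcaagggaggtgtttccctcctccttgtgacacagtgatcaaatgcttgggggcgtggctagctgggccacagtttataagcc
*Oasl1*, chr5:114922990-114923239, plus strand: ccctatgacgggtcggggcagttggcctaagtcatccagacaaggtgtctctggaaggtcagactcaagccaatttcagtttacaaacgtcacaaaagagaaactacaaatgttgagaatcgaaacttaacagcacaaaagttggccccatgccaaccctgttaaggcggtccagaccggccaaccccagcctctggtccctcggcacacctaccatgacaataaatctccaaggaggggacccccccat
*Stat2*, chr10:128270248-128270497, plus strand: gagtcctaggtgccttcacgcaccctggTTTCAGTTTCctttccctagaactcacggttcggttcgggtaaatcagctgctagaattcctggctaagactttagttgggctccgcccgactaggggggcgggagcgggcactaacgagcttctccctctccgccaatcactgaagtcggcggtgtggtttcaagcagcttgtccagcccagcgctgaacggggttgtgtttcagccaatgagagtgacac
*Isg15*, chr4:156200819-156201068, minus strand: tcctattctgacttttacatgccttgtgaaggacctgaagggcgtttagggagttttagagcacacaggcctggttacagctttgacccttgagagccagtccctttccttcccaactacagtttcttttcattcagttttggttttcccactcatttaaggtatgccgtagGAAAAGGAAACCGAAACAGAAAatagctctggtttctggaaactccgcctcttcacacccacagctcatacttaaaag

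*Isg15* held 3 overlapping matches between positions -78 and -57 from the start, *Rsad2* held 1 at -120 to -111 and *Stat2* held 1 at -222 to -213. No match lay in this window of *Oasl1*, which says only that these letters are not there. Such a match was found in 3.34% of the 12037 tested genes that matched a promoter, in 9 of 21 matched type I interferon response genes (42.86%) and in 10 of 11 matched guanylate-binding protein and immunity-related GTPase genes (90.91%). Of genes higher in MC38 tumors 7.634% held one (100 of 1310), and of genes lower 2.006% (19 of 947). TTCNNNGAA, the letters of the GAS on both strands, lay in 7.261% of tested promoters and in 6 of the 11 guanylate-binding protein and GTPase promoters. A match is a description of letters and not a site in use.

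Type I interferon response genes stood higher in MC38 tumors as a group. Of 28 tested members 24 were higher and none lower, against 11.2% higher among all genes, and the median log2 fold change was 2.03 beside 0.00 over all genes. In 19 of them all 3 MC38 tumors lay above the 12 others, which 7.66% of all genes did, and 12 were higher than each of the 4 models singly, which 2.12% of all genes were. With the others as 1 group 18 were called higher.

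*Rsad2* encodes viperin, an antiviral enzyme, and read 377, 637 and 441 CPM in MC38 tumors 1, 2 and 3. It read 158, 170.0 and 84.6 CPM in B16, 38.7, 28.7 and 29.98 in EO771, 12.4, 19.1 and 58.1 in LL2 and 7.55, 19.1 and 12.5 in Pan02. The groups did not overlap, B16 was the nearest, and the log2 fold change was 3.74 (standard error 0.32, edgeR adjusted p = 8.8e-07). *Isg15*, a ubiquitin-like protein attached to other proteins in antiviral defence, read 148, 319 and 190.3 CPM in MC38 and 11.01 to 62.4 CPM (median 26.002 CPM) in the other 12 tumors. Its log2 fold change was 2.92 (standard error 0.33, edgeR adjusted p = 8.4e-06). *Oasl1*, an OAS-like protein, read 120.1, 252 and 173 CPM against 8.26 to 41.9 CPM (median 18.9 CPM), a log2 fold change of 3.20 (standard error 0.30, edgeR adjusted p = 1.9e-06). MC38 tumor 2 was the highest of the 3 for each of these and for 26 of the 28 genes.

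*Stat2* is one of the factors that carry the signal. It read 173, 218 and 189 CPM against 26.3 to 86.2 CPM (median 50.03 CPM), and the log2 fold change was 1.96 (standard error 0.22, edgeR adjusted p = 7.6e-06). *Irf7*, which drives interferon genes, rose by 1.70 on the log2 scale with an edgeR adjusted p of 0.0015, with MC38 tumor 1 inside the range of the others, and *Irf9*, the DNA-binding subunit, was at 0.90 on the log2 scale with an edgeR adjusted p of 0.00098, under the fold threshold, which it passed without LL2 tumor 3 (1.00) and with total-count scaling (1.05). The receptor genes did not pass the fold threshold: *Ifnar1* was at -0.65 and *Ifnar2* at -0.15 on the log2 scale. With the adjusted p alone 1 member of the list was lower, and 1 had all 3 MC38 tumors below the 12 others. *Ifnb1* had too few counts to be tested. These members of the pathway, and *Zbp1*, *Ifih1*, *Nlrc5* and *Ifng* below, are named for their place in it and were chosen after their values were seen. Among sensors of nucleic acid, *Zbp1* read 243, 314 and 240.2 CPM against 13.4 to 100.7 CPM (median 44.8 CPM) and rose by 2.57 on the log2 scale with an edgeR adjusted p of 1.5e-05. *Ifih1*, which encodes the RNA sensor MDA5, rose by 2.05 on the log2 scale with an edgeR adjusted p of 0.00023.

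**Figure D1:**
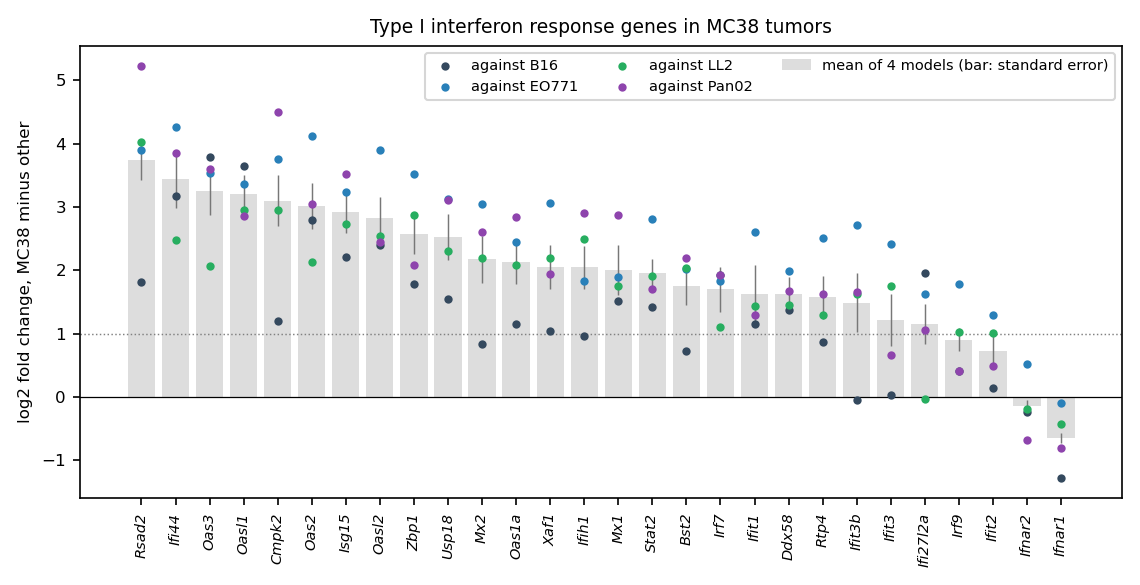
Log2 fold change of the 28 tested type I interferon response genes, in order of size. Grey bars are MC38 against the mean of the 4 other models with the standard error, points are MC38 against each model, and the dotted line is the fold threshold of 1. Most points lie above 1, and the B16 point is often the lowest.

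The size of the difference depended on the model set against MC38. Of the 28 genes, 26 were higher in MC38 than in EO771 (background 14.1%), 22 than in LL2 (10.7%), 21 than in Pan02 (13.0%) and 14 than in B16 (19.8%). None was lower in MC38 except against B16, where *Ifnar1* was. The summed level of the list was 3664, 5987 and 4218 CPM in the MC38 tumors, and the highest of the others were B16 tumor 2 at 2276 CPM and LL2 tumor 3 at 2145 CPM. LL2 tumors differed among themselves, at 566, 922 and 2145 CPM, and LL2 tumor 3 was the highest of the 12 others for 13 of the 28 genes. Several OAS, IFIT and MX genes are close copies of each other, so reads may have been split between them.

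Many genes of MHC class I presentation were higher in MC38. Of 23 tested, 14 were higher and none lower (median 1.21), 12 had all MC38 tumors above the 12 others, and with the others as 1 group 9 were called higher. In single comparisons 17 were higher than in EO771 (background 14.1%), 13 than in LL2 (10.7%), 8 than in B16 (19.8%) and 7 than in Pan02 (13.0%). Against Pan02 1 was lower, and 2 were higher than in each of the 4 models (background 2.12%). *Tap1*, a subunit of the pump that carries peptides into the endoplasmic reticulum, read 626, 734 and 649 CPM against 41.1 to 416 CPM (median 149 CPM) and rose by 1.98 (standard error 0.31, edgeR adjusted p = 0.00014). It was not called against B16 (log2 difference 0.997, edgeR adjusted p = 0.065). *Psmb10*, a catalytic subunit of the immunoproteasome, read 533, 622 and 519 CPM against 40.2 to 285 CPM (median 131 CPM). It rose by 2.27 (standard error 0.22, edgeR adjusted p = 2.3e-06) and was higher than in each of the 4 models. *Tapbp*, which encodes tapasin, the loading chaperone, read 1502, 1979.5 and 1616 CPM against 321 to 1258 CPM (median 415 CPM) and was among the most abundant genes that rose (log2 fold change 1.65, edgeR adjusted p = 8.3e-05), but 29.0% of its exon bases lie in other genes, on either strand, whose reads cannot be told apart from its own. Against Pan02 *Tapbp* was under the fold threshold (log2 difference 0.92, edgeR adjusted p = 0.033). The nonclassical gene *H2-T10* rose by 2.63 on the log2 scale with an edgeR adjusted p of 4.5e-06, with 27.1% of its exon bases in another gene. *Nlrc5*, the transactivator of class I genes, read 149, 140.0 and 142 CPM against 13.5 to 130.1 CPM (median 53.3 CPM) and rose by 1.32 on the log2 scale with an edgeR adjusted p of 0.0031. The chaperone *Canx* did not reach the fold threshold at 0.75 on the log2 scale with an edgeR adjusted p of 9.9e-06. H2 genes are near copies of each other, so reads may have been split between them.

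MHC class II genes, which professional presenting cells and cells under interferon gamma use, showed no such pattern against the mean of 4: of 15 tested 1 was higher, *H2-Oa*, and 1 lower, *H2-DMb2* (median -0.15). In single comparisons 7 were lower than in Pan02 (background 18.7%) and none higher. Against B16, EO771 and LL2 2, 1 and 1 were higher (19.8%, 14.1% and 10.7%) and none lower. The summed level was 3435, 2073 and 3305 CPM in MC38 and 4075, 12006 and 11826 CPM in Pan02. *H2-DMb2* read 1.25, 1.07 and 0.958 CPM in MC38 and 5.64, 23.6 and 9.54 in Pan02, and without any single MC38 tumor its call was lost (edgeR adjusted p from 0.065 to 0.085). *H2-Oa* was under 5 CPM in every tumor.

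Interferon gamma itself was low everywhere. *Ifng* read 2.96, 2.904 and 3.83 CPM in MC38 and 0.06795 to 2.901 CPM (median 0.759 CPM) elsewhere, above all others by a small margin in every MC38 tumor (log2 fold change 2.23, edgeR adjusted p = 0.0019). Of the 22 genes of its signalling list 9 were higher and none lower (median 0.88), and with the others as 1 group 3 were. *Irf1*, the transcription factor induced first, read 466, 389.8 and 404 CPM against 52.1 to 361 CPM (median 189 CPM) and rose by 1.58 (standard error 0.18, edgeR adjusted p = 8.2e-06).

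Guanylate-binding proteins and immunity-related GTPases, which attack vacuoles of intracellular microbes, set MC38 apart from only some models. Of 20 tested 13 were higher than the mean of 4 (median 1.45). Against single models, 19 were higher than in EO771 (background 14.1%) and 13 than in LL2 (10.7%), while 3 were higher than in B16 (19.8%) and 1 than in Pan02 (13.0%). *Gbp3* read 228, 247 and 205 CPM in MC38, 64.3, 75.9 and 59.5 in B16, 18.2, 19.8 and 20.5 in EO771, 9.51, 21.9 and 84.5 in LL2 and 56.7, 196 and 70.1 in Pan02. MC38 lay above all 12, with Pan02 tumor 2 close, and the log2 fold change was 2.24 (standard error 0.41, edgeR adjusted p = 0.0005). Pan02 tumor 2 was the highest of the 12 others for 15 of the 20 genes. Without LL2 tumor 3, 18 members were called higher, and with the others as 1 group 1 was. The genes are close copies that sit in clusters, so reads may have been split between them.

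Ido1 and Ido2, enzymes that open the kynurenine pathway of tryptophan breakdown, were found in MC38 at levels that no other tumor reached. *Ido1* (chromosome 8, 24584133 to 24596952, mm10) read 31.8, 23.8 and 21.4 CPM in MC38, 1.29, 4.66 and 1.801 in Pan02, and no more than 0.438 CPM in any of the other 9. Its log2 fold change was 6.22 (standard error 0.39, edgeR adjusted p = 6.6e-08), and the lowest MC38 tumor was 4.603 times the highest other. *Ido2*, the neighbouring gene, read 33.5, 39.9 and 27.4 CPM in MC38, 3.69, 7.12 and 6.78 in Pan02, and no more than 1.15 CPM in the others, a log2 fold change of 5.14 (standard error 0.27, edgeR adjusted p = 1.3e-08). Further along the pathway the list did not move as a whole against the mean of 4: of 15 tested 4 were higher and 1 lower (median -0.18). Against Pan02 alone 7 were lower (background 18.7%) and 3 higher (13.0%). *Kyat3*, a transaminase that makes kynurenic acid, rose by 1.94 (standard error 0.11, edgeR adjusted p = 2.6e-08), and its relative *Kyat1* was lower (log2 fold change -1.35, edgeR adjusted p = 6.4e-05).

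Some chemokines that call T cells were higher in MC38. *Cxcl10*, a ligand of CXCR3, read 502, 672 and 524 CPM in MC38, 63.99, 81.7 and 84.6 in B16, 25.7, 22.5 and 25.3 in EO771, 10.6, 26.5 and 103 in LL2 and 12.9, 52.9 and 22.3 in Pan02. No tumor of another model reached the lowest MC38 tumor, and the log2 fold change was 3.82 (standard error 0.41, edgeR adjusted p = 6.1e-06). *Cxcl11* read 8.21, 12.2 and 7.702 CPM against 0 to 2.003 CPM (median 0.386 CPM) and rose by 4.38 on the log2 scale with an edgeR adjusted p of 3.6e-05, although 41.7% of its exon bases lie in another gene and the C57BL/6 strain is known for a frameshift that leaves no full protein. *Ccl4* and *Ccl5* rose by 1.42 and 1.96 on the log2 scale (edgeR adjusted p = 0.0032 and 0.003). Of 19 tested chemokine and receptor genes of this list 5 were higher and 2 lower, and with the others as 1 group 3 were higher. A ligand of CCR4 went the other way: *Ccl22* read 4.09, 2.06 and 1.78 CPM against 3.82 to 85.9 CPM (median 5.23 CPM), a difference of -1.86 on the log2 scale with an edgeR adjusted p of 0.023 (this gene was chosen after its value was seen). Its call was lost without MC38 tumor 2 (edgeR adjusted p = 0.092) or MC38 tumor 3 (0.084).

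Cytotoxic granule and NK cell genes were higher in MC38, whereas genes that define T cells in general were not called. Of 29 tested cytotoxic and NK genes 19 were higher and none lower, with a median log2 fold change of 1.62 and every fold change above 0. *Gzmb*, the granzyme that triggers cell death in targets, read 56.2, 68.5 and 58.2 CPM in MC38, 19.9, 35.9 and 23.4 in B16, 4.92, 6.79 and 8.802 in EO771, 4.82, 15.99 and 44.6 in LL2 and 2.101, 14.8 and 11.3 in Pan02. The MC38 tumors lay above all others, LL2 tumor 3 being closest, and the log2 fold change was 2.14 (standard error 0.46, edgeR adjusted p = 0.0015). Against single models *Gzmb* was higher than in EO771 and Pan02 but not called against B16 (edgeR adjusted p = 0.13) or LL2 (0.085). With the others as 1 group its edgeR adjusted p was 0.057. *Gzmc* read 38.6, 78.5 and 61.3 CPM against 3.98 to 25.4 CPM (median 7.84 CPM), a log2 fold change of 2.70 (standard error 0.36, edgeR adjusted p = 4.2e-05). *Eomes*, a transcription factor of NK cells and memory CD8+ T cells, read 17.2, 27.3 and 24.9 CPM against 0.424 to 7.995 CPM (median 2.29 CPM) and rose by 3.54 (standard error 0.38, edgeR adjusted p = 5.7e-06). *Klra4*, a Ly49 receptor of NK cells, read 30.8, 30.7 and 26.4 CPM in MC38 and 4.28, 6.96 and 2.97 in LL2, the next highest model, and the log2 fold change was 4.39 (standard error 0.28, edgeR adjusted p = 6.3e-08). RNA of *Klra4* was also found in the MC38 CAF libraries described below.

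*Gzmf* was at 35.6, 22.04 and 28.2 CPM in MC38 and 2.75, 4.903 and 28.1 in LL2, where tumor 3 lay inside the MC38 range, and rose by 4.05 on the log2 scale with an edgeR adjusted p of 1.8e-05 against the mean of 4. Granzymes and Ly49 receptors are families of close copies. The number of the 29 members higher in MC38 was 19 against EO771 (background 14.1%), 12 against B16 (19.8%), 11 against Pan02 (13.0%) and 5 against LL2 (10.7%). Summed over the list the level was 431, 486 and 484 CPM in MC38 and 50.1, 108 and 354 CPM in LL2, and LL2 tumor 3 was the highest of the 12 others for 18 of the 29 genes. Without LL2 tumor 3, 25 members were called higher, and with the others as 1 group 4 were.

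None of the 25 T cell genes was called by edgeR, 2 of them having an unadjusted p under 0.05, and DESeq2 called none. The median log2 fold change was 0.39. *Cd8a* read 21.7, 15.8 and 22.4 CPM in MC38, 4.86, 21.4 and 3.99 in B16, 2.17, 4.63 and 3.05 in EO771, 1.26, 1.49 and 15.6 in LL2 and 3.52, 23.3 and 5.43 in Pan02. MC38 tumors were alike, while 1 tumor each of B16, LL2 and Pan02 stood far above its own group and the log2 fold change of 1.55 (standard error 0.66, edgeR adjusted p = 0.064) missed the threshold. It passed with scaling to total counts (0.04), with the replicate number as a block (0.029), and without B16 tumor 2 (0.026), LL2 tumor 3 (0.0044) or Pan02 tumor 2 (0.019), all edgeR adjusted p. *Cd4* read 2.96, 2.904 and 5.51 CPM in MC38 and 8.16, 24.5 and 15.6 in Pan02, at -0.79 on the log2 scale with an edgeR adjusted p of 0.13. Summed, T cell genes stood at 179, 178 and 185 CPM in MC38 and at 49.5 to 374.4 CPM in the others, of which 4 were above every MC38 tumor. Without LL2 tumor 3, 5 of the 25 were called higher. The pan-leukocyte gene *Ptprc* (CD45) read 100.3, 82.8 and 122 CPM against 26.3 to 124 CPM (median 55.6 CPM), at 0.73 on the log2 scale with an edgeR adjusted p of 0.074.

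**Figure D2:**
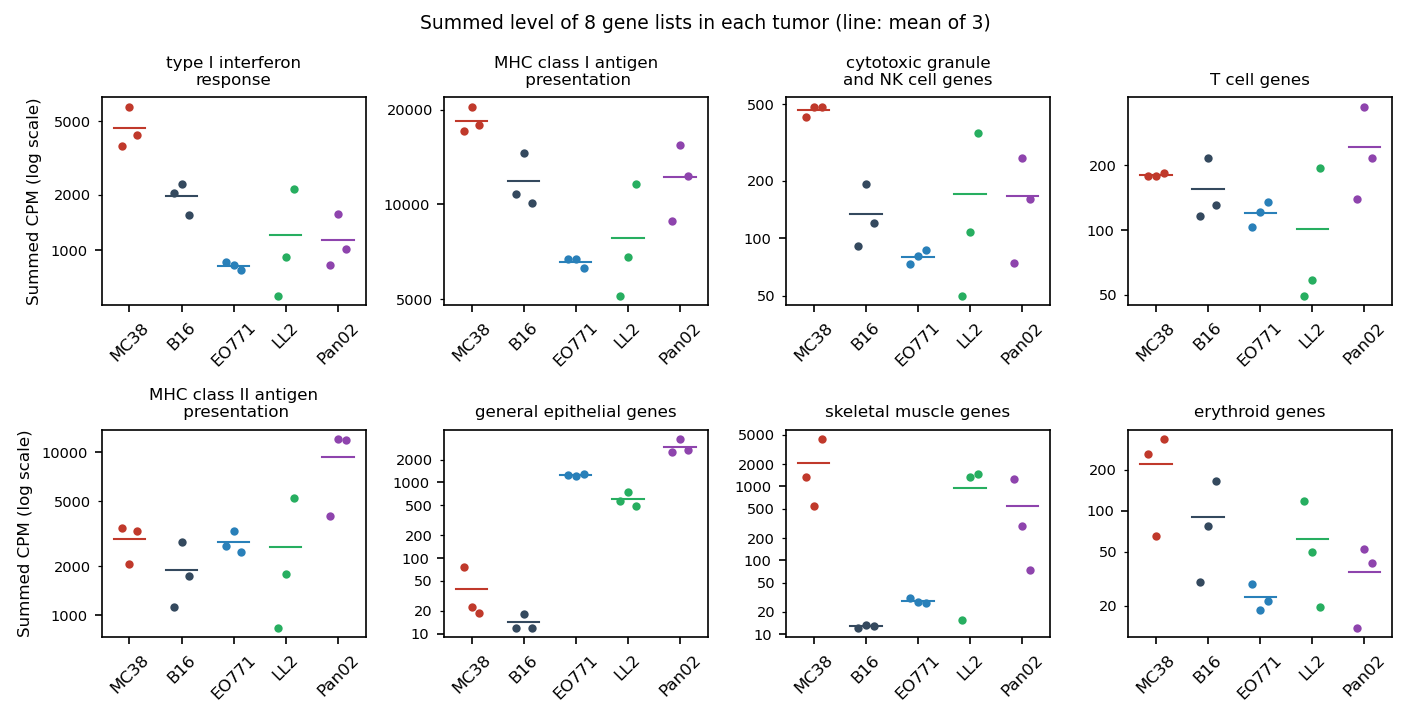
Summed CPM of the members of 8 gene lists in each of the 15 tumors, by model, on log axes; points are tumors in replicate order and lines are means of 3. MC38 stood above all 12 others for the type I interferon, MHC class I and cytotoxic lists and within their range for T cell and MHC class II genes, and muscle RNA ran from 538.6 to 4362 CPM among the MC38 tumors.

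Of checkpoint ligands, which brake or help T cells, 4 of 20 were higher and 2 lower. *Fgl1*, a ligand of LAG3, read 2.45, 4.32 and 2.91 CPM against 0.652 to 2.04 CPM (median 1.401 CPM) and rose by 1.26 on the log2 scale with an edgeR adjusted p of 0.00044, or by 1.00 without MC38 tumor 2, just under the threshold before rounding. *Cd276*, which encodes B7-H3, was lower at 44.96, 40.1 and 48.9 CPM against 51.8 to 228 CPM (median 110.2 CPM), a difference of -1.22 on the log2 scale with an edgeR adjusted p of 3.4e-05. *Tnfsf9*, the ligand of 4-1BB, rose by 1.37 on the log2 scale with an edgeR adjusted p of 5.2e-06, but Pan02 read 45.3, 30.9 and 39.1 CPM against 31.6, 37.8 and 32.8 in MC38. The receptor list had 2 of 16 higher.

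Myeloid and stromal lists stayed near the background against the mean of 4, but not against each model. Of 30 monocyte and macrophage genes 5 were higher and 1 lower, 2 of 17 neutrophil genes were higher, and 2 of 22 dendritic cell genes were higher and 3 lower. In single comparisons 19 of the 30 monocyte and macrophage genes were higher than in B16 (background 19.8%). Against Pan02 3 were higher (13.0%) and 12 lower (18.7%). Of the 17 neutrophil genes 14 were higher than in B16 and 7 than in EO771 (14.1%), while 11 were lower than in LL2 (9.74%) and 7 than in Pan02. Of the 22 dendritic cell genes 3 were higher and 9 lower than in Pan02. *Ly6c2*, a marker of inflammatory monocytes, read 25.2, 55.5 and 34.5 CPM against 1.78 to 31.8 CPM (median 5.54 CPM), a difference of 2.37 on the log2 scale with an edgeR adjusted p of 0.0015, and LL2 tumor 3 reached 31.8 CPM. *Ccl2*, which draws monocytes from blood, read 178, 208 and 190.4 CPM in MC38, 208, 353 and 226 in LL2 and at most 56.7 CPM elsewhere (log2 fold change 1.90, edgeR adjusted p = 0.00021). *Ly75*, the endocytic receptor DEC-205 of dendritic cells and some epithelia, read 115, 97.2 and 93.7 CPM against 7.53 to 34.2 CPM (median 19.5 CPM) and was higher than in each of the 4 models (log2 fold change 2.46, edgeR adjusted p = 1.8e-06). *Bst2*, the antiviral protein tetherin and a marker of plasmacytoid dendritic cells, read 636, 1202 and 773 CPM against 94.8 to 606 CPM (median 224 CPM), a difference of 1.74 on the log2 scale with an edgeR adjusted p of 0.00023. *Cadm1*, of the dendritic cell list, was lower (log2 fold change -1.84, edgeR adjusted p = 0.002). It read 15.1, 14.3 and 30.1 CPM against 24.4 to 399 CPM (median 43.3 CPM). *Nos2*, the inducible nitric oxide synthase, and *Ptgs2*, which encodes COX-2, rose by 1.84 and 2.44 on the log2 scale (edgeR adjusted p = 0.0012 and 0.00086), and LL2 tumor 2 read 331.95 and 233 CPM of them, above every MC38 tumor. *Ptgs1*, which encodes COX-1, was lower than the mean of 4 (log2 fold change -2.52, edgeR adjusted p = 2.0e-06) but higher than in B16, at 13.2, 7.84 and 10.5 CPM against 4.22, 6.404 and 4.27 (log2 difference 1.07, edgeR adjusted p = 0.0045). Of 28 fibroblast and matrix genes 2 were higher and 2 lower against the mean of 4. Yet 28 were higher than in B16 (background 19.8%) and 25 lower than in Pan02 (18.7%). Endothelial genes had 2 of 18 higher and 1 lower.

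**Figure D3:**
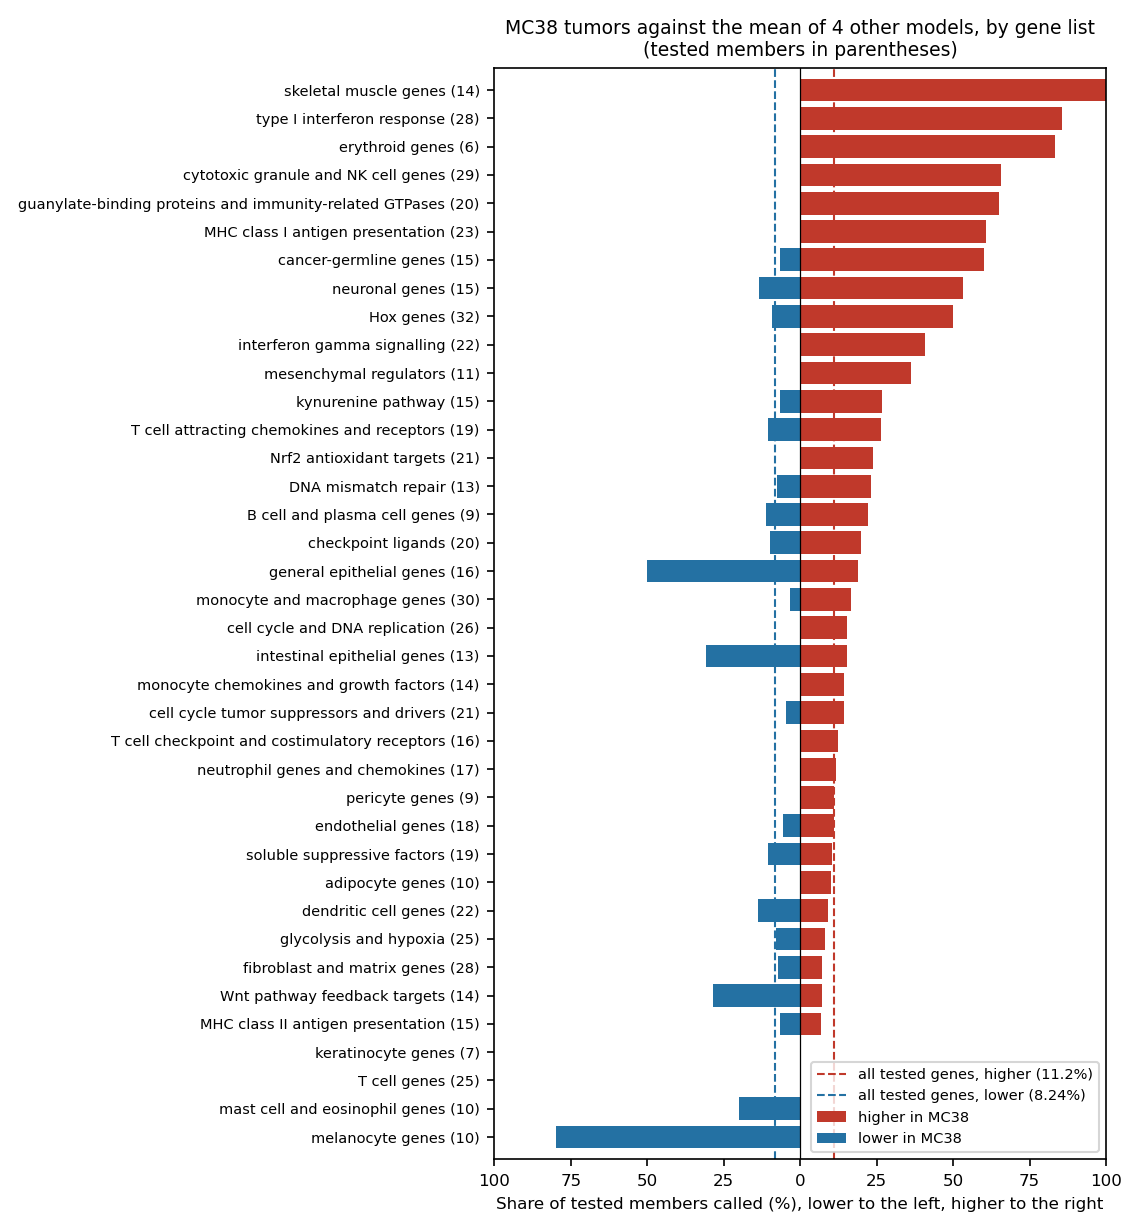
Share of the tested members of 38 gene lists called higher (right) or lower (left) in MC38 tumors against the mean of the 4 other models, with the shares over all genes as dashed lines. Muscle, type I interferon, erythroid, cytotoxic, GTPase and MHC class I lists stand highest, and melanocyte and general epithelial genes reach furthest to the left.

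The genes that set MC38 apart most were not immune genes. The 12 with the largest rise, among genes at 10 CPM or more in MC38 with all 3 MC38 tumors above the other 12, were *Elavl2*, *Fam159b*, *Tex13b*, *Cyct*, *Cntn3*, *Fmr1nb*, *Efhc2*, *Sis*, *Atp13a4*, *Sox2*, *Pnma5* and *Efcab6*. Each was higher than in each of the 4 models. Because most other tumors had 3 counts or fewer, the fitted fold changes depend on the small count added in the fit, and the bound given is the lowest MC38 tumor over the highest other tumor or over 3 counts per library, whichever is larger.

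*Elavl2* (chromosome 4, 91250689 to 91372069, mm10), an RNA-binding protein of neurons and germ cells, read 15.98, 15.1 and 12.1 CPM in MC38 and was at 0 in 10 of the 12 others, the highest being 0.0849 CPM. It was at least 41.1-fold higher (edgeR adjusted p = 7.6e-08). *Fam159b* (chromosome 13, 104845283 to 104863893), which encodes a Shisa-like membrane protein, read 121, 160.4 and 98.1 CPM, the largest level of the 12, and was at least 333-fold higher. *Sox2*, a pluripotency and neural progenitor factor, read 28.2, 25.3 and 17.5 CPM in MC38, and 0, 0.675 and 0.4202 CPM in Pan02, the next highest model. It was at least 25.98-fold higher. *Sis*, the sucrase-isomaltase of the intestinal brush border, read 15.3, 13.5 and 7.805 CPM in MC38 and at most 0.180 CPM elsewhere, at least 26.5-fold higher. *Cntn3*, a neural adhesion protein, read 39.9, 43.6 and 40.6 CPM against 0 to 1.15 CPM (median 0.0828 CPM). *Cyct*, the cytochrome c of testis, read 10.3, 13.7 and 11.1 CPM and was at 0 in 8 of the others. Across the 12 genes the bound ran from 23.3-fold (*Pnma5*) to 333-fold.

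Of these 12, *Tex13b*, *Fmr1nb*, *Efhc2* and *Pnma5* lie on the X chromosome, and *Tex13b* and *Fmr1nb* are known from testis. *Tex13b* (chromosome X, 140808307 to 140813433) read 78.1, 91.7 and 69.3 CPM in MC38, at least 89.2-fold above the others, and *Fmr1nb* (chromosome X, 68761839 to 68804560) 41.8, 65.6 and 45.6 CPM, at least 58.4-fold above. Of 46 cancer-germline genes 15 could be tested, 9 were higher in MC38 and 1 lower (5 higher with the others as 1 group). Counts in 1 model are enough for a gene to be tested, so members silent elsewhere could be tested through MC38 alone. The 9 of 15 can therefore not be read against the share over all genes. The summed level of the 46 was 409, 467 and 371 CPM in MC38 and 434, 405 and 385 CPM in EO771. *Tex101*, a sperm surface protein, read 3.03, 4.74 and 3.46 CPM against 0 to 0.218 CPM (median 0 CPM), and *Mageb1*, an X-linked antigen gene with near copies, 2.17, 1.99 and 2.36 CPM against 0 to 0.637 CPM (median 0 CPM).

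**Figure D4:**
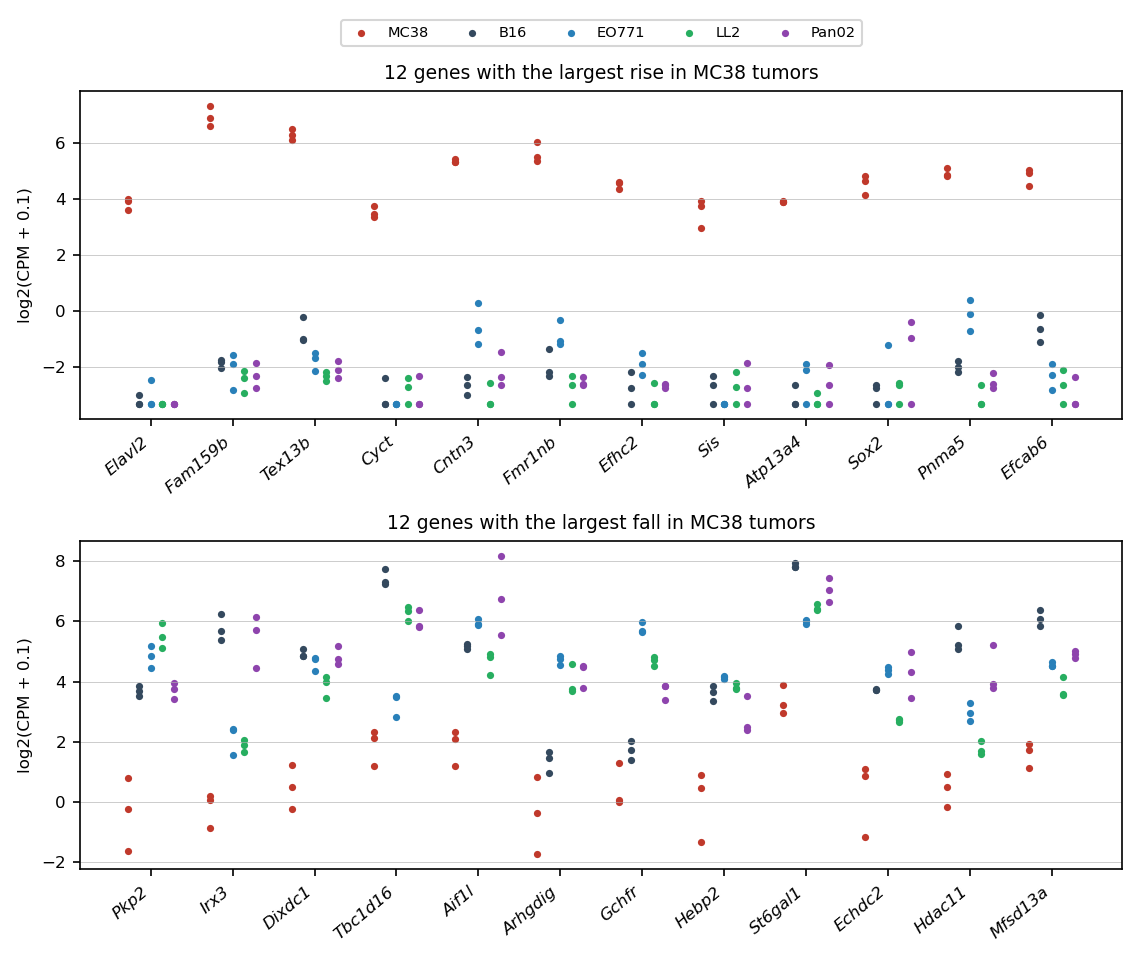
Levels in every tumor, as log2(CPM + 0.1), of the 12 genes with the largest rise (top) and the 12 with the largest fall (bottom) in MC38 tumors; each point is 1 tumor, coloured by model. In the upper panel most tumors of the 4 other models lie near the lower limit, where the counts are 0, while in the lower panel the MC38 tumors lie at 14.7 CPM or less.

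Neuronal genes were split. Of 15 tested 8 were higher and 2 lower, and with the others as 1 group 2 were higher. As with the cancer-germline genes, members silent elsewhere could be tested through MC38 alone. *Map2*, a microtubule protein of dendrites, read 22.2, 22.3 and 18.04 CPM in MC38, 9.58, 7.55 and 8.36 in B16 and at most 1.10 CPM elsewhere, a log2 fold change of 4.60 (standard error 0.20, edgeR adjusted p = 2.4e-09). *Nrcam*, a neural adhesion molecule, read 1.23, 1.29 and 0.856 CPM in MC38 and 372, 383 and 314 in B16 (log2 fold change -3.87, edgeR adjusted p = 1.6e-06).

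MC38 tumors carried few marks of intestine or of epithelium beside *Sis*. Of 24 intestinal epithelial genes 13 had counts enough to be tested, of which 2 were higher and 4 lower, and *Muc2*, *Cdx1* and *Fabp2* were not among them. *Cdh17*, an intestinal cadherin, read 4.72, 1.66 and 3.12 CPM in MC38 and 6.18, 3.37 and 2.79 in Pan02 (log2 fold change 2.58, edgeR adjusted p = 0.00046). *Lgr5*, a stem cell receptor, was at 0.626, 0.124 and 0.205 CPM against 59.0, 59.2 and 24.9 in Pan02 (log2 fold change -2.49, edgeR adjusted p = 0.00084). Of 16 general epithelial genes 8 were lower and 3 higher (median -1.49), and with the others as 1 group none was lower. *Krt18*, a keratin of simple epithelia, read 1.35, 1.54 and 2.05 CPM in MC38, 326, 431 and 266 in LL2 and 924, 1333 and 950.1 in Pan02, a log2 fold change of -4.66 (standard error 0.28, edgeR adjusted p = 4.3e-08). B16 and EO771 lay close to MC38 at 1.77, 3.79 and 2.32 and 3.55, 3.06 and 2.14 CPM. *Krt8*, its partner, read 54.8, 4.17 and 2.84 CPM, so MC38 tumor 1 stood well above the other MC38 tumors (this gene was chosen after its values were seen). Summed over the list the MC38 tumors had 75.5, 22.6 and 19.03 CPM, above 11.9 to 18.4 CPM in B16 and far below 483 to 3743 CPM in the rest. The mesenchymal regulators *Snai1*, *Twist1* and *Twist2* were called higher against the mean of 4, and in single comparisons each was called higher against B16 and against no other model. *Twist1* was called lower than in LL2, at 63.3, 62.9 and 53.9 CPM against 133, 120.5 and 125 (log2 difference -1.07, edgeR adjusted p = 0.00025), and its log2 fold change was 0.01 with the others as 1 group. B16 tumors had at most 6.25 CPM of *Snai1*, and 46.5% of the exon bases of *Twist2* lie in another gene. Melanocyte genes, which mark B16, had 8 of 10 lower, and all 10 were lower than in B16 (background 14.3%).

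Hox genes, which give cells a position along the body axis, were often higher than the mean of 4, but not against each model. Of 32 Hox genes tested 16 were higher and 3 lower (median 1.15), and with the others as 1 group 5 were higher. In single comparisons 18 were higher than in B16 (background 19.8%) and 5 lower (14.3%), and 18 higher than in EO771 (14.1%) and none lower. Against LL2 12 were higher (10.7%) and 11 lower (9.74%), and against Pan02 11 were higher (13.0%) and 6 lower (18.7%). *Hoxb13*, a gene of the tail region and hindgut, read 4.84, 9.04 and 5.03 CPM in MC38 and at most 0.0982 CPM elsewhere, at least 16.4-fold higher. *Hoxa9* read 35.3, 38.01 and 31.2 CPM against 0.815 to 6.81 CPM (median 1.67 CPM), and the log2 fold change was 3.88 (standard error 0.21, edgeR adjusted p = 1.9e-08). *Hoxd13* read 18.5, 23.4 and 17.05 CPM in MC38 and 20.7, 16.4 and 20.8 in B16, with a log2 difference of 0.03 (edgeR adjusted p = 0.94), while the other 9 tumors were at most at 0.104 CPM. The 3 genes lower than the mean of 4, *Hoxa2*, *Hoxa3* and *Hoxd4*, belong to the anterior part of their clusters. So do *Hoxa4*, *Hoxc4* and *Hoxc5* among the 16 higher (all 6 named after their values were seen). *Hoxd4* stood at the fold threshold (-1.01) and fell under it without any 1 of 8 tumors, among them MC38 tumors 1 (-0.95) and 2 (-0.92).

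Some genes of Wnt signalling, the pathway that colon tumors often switch on, were lower. Of 14 tested 4 were lower and 1 higher (median -0.55), with none lower when the others were 1 group, and the summed level was 919, 881 and 865 CPM in MC38, below every other tumor (1262 to 2358 CPM), with *Ctnnb1* as the largest single part. *Axin2*, the common feedback gene, read 2.12, 2.21 and 2.29 CPM in MC38, 4.42, 1.41 and 1.63 in LL2 and more in the other 9, a log2 fold change of -2.15 (standard error 0.31, edgeR adjusted p = 7.6e-05). *Ctnnb1*, which encodes beta-catenin, read 426, 384 and 377 CPM against 567 to 1957 CPM (median 723 CPM) and was lower by edgeR with TMM (log2 fold change -1.13, edgeR adjusted p = 2.4e-06) but not past the fold threshold with total-count scaling (-0.99). In single comparisons *Ctnnb1* passed the fold threshold against B16 only (log2 difference -2.24), with -0.60, -0.73 and -0.97 against EO771, LL2 and Pan02. *Lef1*, a transcription factor of the pathway, went the other way at 13.98, 23.4 and 18.3 CPM against 0.212 to 3.205 CPM (median 0.6497 CPM), a difference of 4.35 on the log2 scale with an edgeR adjusted p of 2.6e-07. In all, 13.7% of the exon bases of *Lef1* and 15.1% of those of *Ctnnb1* lie in other genes.

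Mismatch repair, whose loss makes tumors hypermutated, showed 1 gene lower. *Mlh3*, a MutL homolog, read 7.702, 7.199 and 6.91 CPM in MC38 and 15.996 to 23.9 CPM (median 19.7 CPM) elsewhere, lower than in each of the 4 models, and the log2 fold change was -1.41 (standard error 0.12, edgeR adjusted p = 5.7e-07). *Exo1*, the exonuclease of the pathway, and *Pole*, the catalytic subunit of DNA polymerase epsilon, rose by 1.73 and 1.49 on the log2 scale (edgeR adjusted p = 1.5e-06 for both). Of 13 genes tested 3 were higher.

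A pair of inhibitors of cell division that lie side by side on chromosome 4 were expressed in MC38 and Pan02 and low in the other 3 models. *Cdkn2a* read 6.71, 7.42 and 6.81 CPM in MC38, 2.42, 6.81 and 3.09 in Pan02, and no more than 0.821 CPM in any of the other 9 (log2 fold change 3.03, edgeR adjusted p = 7.3e-07). *Cdkn2b*, its neighbour, read 9.22, 15.6 and 13.3 CPM in MC38, 5.18, 15.99 and 7.17 in Pan02, and no more than 1.53 CPM in any of the other 9 (log2 fold change 3.20, edgeR adjusted p = 3.4e-07). *Mtap*, next to them and needed to salvage methionine, was present in all models and higher in MC38 than in each (log2 fold change 1.40, edgeR adjusted p = 6.1e-06). Among cell cycle and replication genes 4 of 26 were higher, *Rrm2* the clearest of them by fold at 499, 456 and 371 CPM against 59.4 to 441 CPM (median 147 CPM), a difference of 1.41 on the log2 scale with an edgeR adjusted p of 3.0e-05. *Rrm2* was not called against B16 (log2 difference 0.23, edgeR adjusted p = 0.45). Against Pan02 alone 22 of the 26 were higher (background 13.0%), against EO771 4 (14.1%), against LL2 2 (10.7%) and against B16 none (19.8%).

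Genes answering to NRF2, the regulator of the antioxidant response, had 5 of 21 higher and none lower against the mean of 4. In single comparisons 7 were higher than in B16 (background 19.8%) and 5 lower (14.3%), and 10 higher than in EO771 (14.1%) and 2 lower (10.7%). Against LL2 5 were higher (10.7%) and 2 lower (9.74%), and against Pan02 4 were higher (13.0%) and 1 lower (18.7%). *Nqo1*, a quinone reductase, read 20.7, 25.5 and 21.6 CPM in MC38 and 11.4, 12.6 and 8.17 in LL2, the next model, and the log2 fold change was 2.64 (standard error 0.15, edgeR adjusted p = 2.5e-08). *Slc7a11*, the cystine transporter, read 30.3, 17.8 and 29.3 CPM against 2.24 to 13.8 CPM (median 5.12 CPM) and was also higher than in each model (log2 fold change 2.11, edgeR adjusted p = 0.00018; chosen after its value was seen). *Gclm* and *Gsr*, of glutathione synthesis and recycling, rose by 1.37 and 1.38 on the log2 scale (edgeR adjusted p = 1.4e-06 and 3.5e-06).

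Large falls were fewer than large rises: 410 genes were higher by a log2 fold change of at least 3 and 108 lower by as much, and 106 against 4 at a threshold of 5. These 4 were *Cmtm5*, *Foxa2*, *Hhip* and *Sncb*, named after their values were seen. Among called genes with a mean of at least 10 CPM in the other 12 tumors and all 3 MC38 tumors below them, the 12 with the largest fall, each lower than in each of the 4 models, were *Pkp2*, *Irx3*, *Dixdc1*, *Tbc1d16*, *Aif1l*, *Arhgdig*, *Gchfr*, *Hebp2*, *St6gal1*, *Echdc2*, *Hdac11* and *Mfsd13a*. *Pkp2* (chromosome 16, 16213345 to 16272712), which encodes plakophilin 2 of the desmosome, read 1.64, 0.223 and 0.753 CPM in MC38 against 10.6 to 61.8 CPM (median 18.7 CPM), a log2 fold change of -4.61 (standard error 0.41, edgeR adjusted p = 1.3e-06). *Irx3*, a homeobox gene, read 1.06, 0.447 and 0.958 CPM and 51.3, 76.2 and 41.5 in B16 but only 2.86, 5.22 and 5.19 in EO771 (log2 fold change -4.13, edgeR adjusted p = 5.6e-06). *Dixdc1*, a positive regulator of Wnt signalling, read 2.24, 0.745 and 1.301 CPM against 10.8 to 35.9 CPM (median 27.1 CPM), a difference of -4.04 on the log2 scale with an edgeR adjusted p of 3.4e-07. *St6gal1*, which adds sialic acid to glycans, read 14.7, 7.75 and 9.24 CPM against 60.5 to 246 CPM (median 97.99 CPM), a difference of -3.45 on the log2 scale with an edgeR adjusted p of 5.4e-08. *Gchfr*, the feedback regulator of GTP cyclohydrolase, read 2.36, 0.894 and 0.958 CPM, and B16 at 2.505, 4.01 and 3.24 CPM lay just above. The most abundant genes called higher with all MC38 tumors above the others were *Tapbp*, *Bst2*, *Pcolce*, *Tap1* and *Aars*. *Aars*, an alanyl-tRNA synthetase, was close to the fold threshold (1.02) and fell under it without MC38 tumor 2 (0.95) or 3 (0.99), LL2 tumor 1 (0.98) or Pan02 tumor 2 (1.00 after rounding). *Pcolce*, an enhancer of procollagen processing, read 673, 874 and 731 CPM against 113 to 586 CPM (median 397 CPM), a difference of 1.18 on the log2 scale with an edgeR adjusted p of 8.8e-07. Of all genes 6.07% had the 3 MC38 tumors below the 12 others, and 411 of the 1296 lower genes did.

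Among glycolysis and hypoxia genes, *Slc2a3*, a glucose transporter, and *Adm*, the hypoxia-induced peptide adrenomedullin, were lower in MC38 than in each model. *Slc2a3* read 5.68, 2.68 and 5.55 CPM against 12.1 to 29.9 CPM (median 17.6 CPM), a difference of -1.99 on the log2 scale with an edgeR adjusted p of 5.0e-06, and *Adm* 17.2, 4.89 and 6.54 CPM against 21.4 to 283 CPM (median 51.1 CPM), a difference of -2.68 on the log2 scale with an edgeR adjusted p of 0.00016. *Slc16a3*, the lactate exporter MCT4, was high at 849, 952 and 795 CPM in MC38 and 967, 869 and 910.1 in EO771 (log2 fold change 1.60, edgeR adjusted p = 7.4e-08). The list of glycolysis and hypoxia genes as a whole had 2 of 25 higher and 2 lower.

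The 4 models were not equally far from MC38 in single comparisons, which share the MC38 tumors. Genes that differed from MC38 numbered 5371 for B16 (34.2%), 4986 for Pan02 (31.7%), 3885 for EO771 (24.7%) and 3221 for LL2 (20.5%). Against Pan02 more genes were lower in MC38 (2935, 18.7%) than higher (2051), whereas against the other 3 more were higher, with 14.3%, 10.7% and 9.74% lower against B16, EO771 and LL2. In all, 334 genes were higher than in each of the 4 models and 162 lower (1.03%). Of the 1766 genes called higher against the mean, 665 were higher than 3 models, 626 than 2, 138 than 1 and 3 than none, so the mean of 4 can rest on a few models.

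Sorted CAFs of the same models gave a second cell fraction to look at, without a test since each model had 2 libraries. Their values are RPKM, read counts scaled by transcript length and library size. Of 13208 genes tested in tumors and at 1 RPKM or more in 2 of the CAF libraries, 19.8% had both MC38 CAF libraries above the 6 of EO771, LL2 and Pan02, and 20.3% had both below. Among genes higher in MC38 tumors the share above was 53.0% (679 of 1281) and 15 genes lay below. Of genes lower in MC38 tumors 41.2% lay below (424 of 1028) and 23 above. Among the genes higher in MC38 tumors than in each of the 4 models, 228 of 260 lay above.

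The 12 genes with the largest rise in MC38 tumors, which read at most 1.22 CPM (*Pnma5*) in the other tumors, were also found in the MC38 CAF libraries, and all 12 had both of these above the 6 others. *Fam159b* read 60.95 and 58.7 RPKM in MC38 CAFs and 0 in the 6 others, beside a mean of 96.9 RPKM in MC38 tumors. *Tex13b* read 34.6 and 54.7 RPKM, beside 37.8 RPKM in the tumors, and *Fmr1nb* read 45.3 and 38.4 RPKM, beside 55.3 RPKM. *Efcab6* read 8.895 and 11.9 RPKM, more than the 5.76 RPKM of the tumors. *Elavl2* was the lowest of the 12 at 0.123 and 0.762 RPKM, beside 3.69 RPKM in the tumors. In the 6 other CAF libraries none of the 12 passed 0.509 RPKM. Tumor RPKM were computed here from the counts, and the tables were scaled separately. The part of RNA from other cells in the CAF values was not tested.

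By list, 25 of 28 type I interferon response genes had both MC38 CAF libraries above the 6 others and none below. For MHC class I it was 15 of 23 with 2 below, for Hox genes 14 of 30 with none below, and for guanylate-binding proteins and GTPases 1 of 16. Fibroblast and matrix genes had 1 of 28 above and 2 below. Of 29 cytotoxic and NK genes 6 were at 1 RPKM or more in 2 CAF libraries, 2 above and none below. *Klra4* read 8.05 and 11.8 RPKM in MC38 CAFs and 0.447 to 6.27 RPKM in the 6 others, beside 30.8 RPKM in MC38 tumors. *Ptprc* read 0.007 and 0.084 RPKM in MC38 CAFs. *Bst2* read 1090 and 790 RPKM there and 85.5 to 209 RPKM in the 6 others, beside 1147 RPKM in MC38 tumors. The cells that carried these RNAs were not tested.

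**Figure D5:**
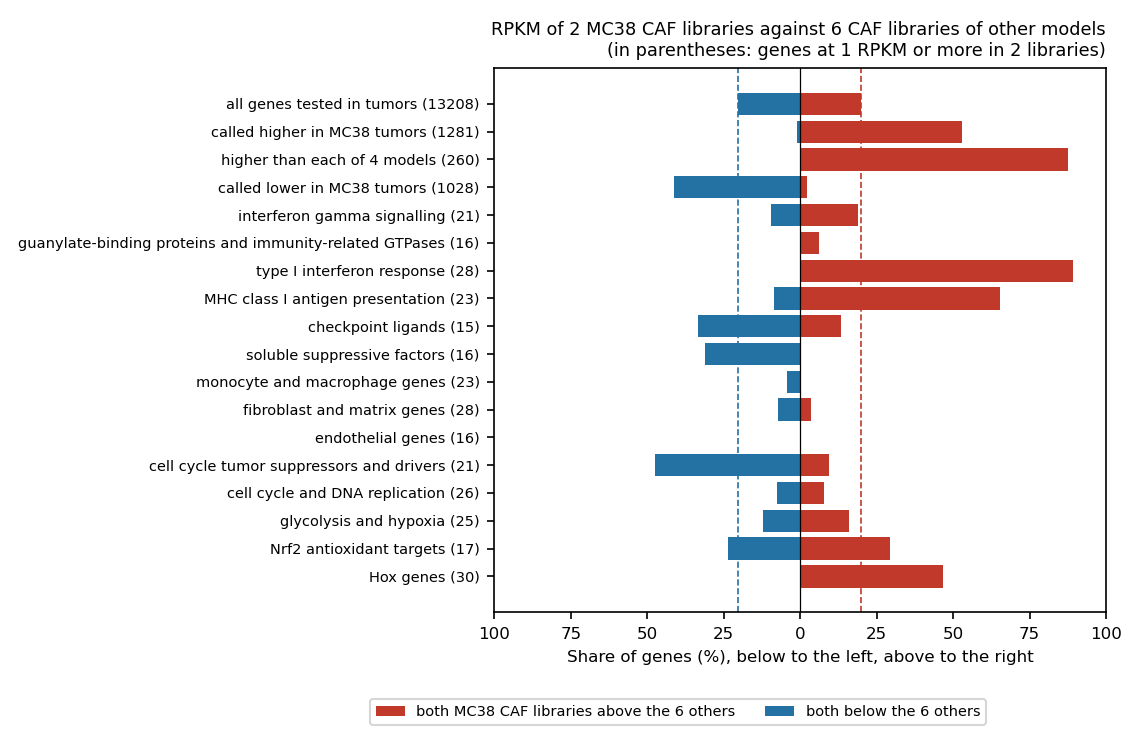
Share of genes whose 2 MC38 CAF libraries both lay above (right) or both below (left) the 6 CAF libraries of EO771, LL2 and Pan02, for all genes, for genes called in tumors and for lists with at least 15 genes at 1 RPKM or more; dashed lines are the shares over all genes. Type I interferon genes and genes higher in MC38 tumors than in each model stand furthest to the right.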

How the data were processed

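RNA of tumor fragments was sequenced from poly(A)-selected, unstranded libraries. The authors deposited expected counts per transcript, in steps of 0.5, made with STAR 2.5.0c and HOMER over exons on both strands of mm10, and RPKM per transcript for the sorted CAFs (CD45-, FAP+). Antisense and overlapping genes can therefore not be told apart by strand. In the tumor table the transcript with the largest mean count stood for a gene (24940 symbols from 40458 transcripts, of which 2 had no gene name), and counts were rounded up from steps of 0.5. The 5 further columns of per-sample values were not used here. The tumors held 10035173 to 21946486 counts.

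Genes passing filterByExpr were tested with edgeR 4.0.16 (R 4.3.3), 1 term per model over all 15 tumors, by the quasi-likelihood test with Benjamini-Hochberg adjustment, 2-sided. Standard errors are the fold change over the root of F. The script was tested on simulated data. Alternatives were DESeq2 1.42.0, other scaling, filters, transcripts and rounding, the replicate number as a block, the 12 others as 1 group, the adjusted p alone, and each tumor or CAF library left out.

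Genes named were 3 markers (*Elavl2*, *Ido1*, *Gzmb*), the 12 largest rises and 12 largest falls among called genes at 10 CPM or more whose groups did not overlap, the 5 most abundant such rises, the 4 members of each list with the lowest p, and defining markers. A few genes are not reported here. Members and lists were chosen with earlier results of these data known. Promoters came from RefSeq on GRCm38.p6 and exon overlaps from the GENCODE annotation of GRCm38, and 12037 tested genes matched a promoter by symbol. Tables were handled in Python 3.11.15 with pandas 2.3.3.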

Additional observations from a re-analysis of the deposited data

How the results depend on the processing

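No called gene changed direction under any of the 24 other ways of handling the tumors, and of the 104 genes named as called 62 kept the call in every one that tested them. With the 12 other tumors as 1 group, 514 genes were higher and 410 lower, and 69 list members were called, since the spread then holds the differences between lines. With the adjusted p alone 4244 genes were higher and 3835 lower, 819 were higher and 754 lower than in each model, and 9429 differed from B16, 7760 from EO771, 6891 from LL2 and 9256 from Pan02. Leaving out 1 tumor gave 1568 (without MC38 tumor 3) to 1920 (without LL2 tumor 3) genes higher and 1077 to 1412 lower, 215 to 260 list members, 303 to 380 genes higher and 127 to 190 lower than in each model, and 5105 to 5601, 3599 to 4095, 3055 to 3426 and 4552 to 5516 genes differing from B16, EO771, LL2 and Pan02. Replicate numbers did not pair the MC38 tumors with those of any other model: correlations of deviations ran from -0.165 to 0.263 over 30 same-numbered pairs of tumors, 9 of them over 0.1. B16 and Pan02 alone had all 3 same-numbered pairs over 0.1 (0.157 to 0.25), with -0.179 to 0.024 over their 6 other pairs. With the replicate number as a block 1760 genes were higher (1718 of them also without it) and 1281 lower (1260), and 238 list members were called. DESeq2 called 1753 higher and 1314 lower. Total-count scaling gave 2152 higher and 1027 lower, against 1766 and 1296. Of genes higher in MC38 tumors, 679 had both MC38 CAF libraries above the others, 837 with every gene above 0 RPKM counted and 579 to 708 without single CAF libraries, and of genes lower 424 lay below, 460 and 411 to 609 respectively. Depth limits genes near 3 counts, whose fold changes are given as bounds.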

Other observations

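Genes higher in MC38 tumors were most frequent on the X chromosome, where 105 of 518 tested genes were called higher (20.3%, against 11.2% over all genes) and 24 lower. The X chromosome, with 518 of the 15722 tested genes, also held 13 of the 106 genes that rose by a log2 fold change of at least 5. It held 32 of the 334 higher than in each model, and chromosome 5 held 35 with 979 tested. By the share with all 3 MC38 tumors above the 12 others, chromosomes 5 (15.4%) and 8 (13.4%) came before X (12.2%), against 7.66% over all genes. The share called higher was lowest on chromosome 12, at 7.48% (40 of 535). Mice were all female.

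The 3 MC38 tumors differed from each other by gene group. Tumor 2 was the highest of the 3 for 26 of 28 type I interferon response genes, 19 of 23 MHC class I genes and 23 of 26 cell cycle genes. It was the lowest for all 14 skeletal muscle genes, all 6 erythroid genes, 24 of 28 fibroblast and matrix genes and 22 of 30 monocyte and macrophage genes. Tumor 3 was the highest for 17 of 18 endothelial genes and all 9 pericyte genes, and tumor 1 for 15 of 17 neutrophil genes.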
